A study of Mus musculus with 15 samples.

Results

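The exocyst is a complex of 8 proteins that ties secretory vesicles to the plasma membrane before they fuse. Its genes, Exoc1, Exoc2, Exoc3, Exoc4, Exoc5, Exoc6, Exoc7 and Exoc8, were found by name among the 52526 genes measured in each mouse, and the set was chosen by the measured difference of Exoc5 between BDE-47 and vehicle mice. The values of Exoc5 are therefore given as a description, and the question put to the data was whether its lower level with BDE-47 was shared by the other 7 subunits.

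All mice were female nude mice (nu/nu, homozygous for the Foxn1 mutation, athymic and without mature T cells) and were studied as normal left 4th mammary tissue after 16 weeks of treatment. The 8 vehicle mice received PEG300 with 1% DMSO and the 7 BDE-47 mice received BDE-47, a flame retardant of the polybrominated diphenyl ether family, in the same vehicle, dosed to reach 0.03 mg/kg/d, from subcutaneous pumps placed after 8 weeks of age. Each mouse gave 1 library, read near the 3′ end of each transcript (QuantSeq 3′ FWD), so levels of different genes were set side by side without a correction for length. Other differences between genes in how their reads are counted were not checked. The study also used xenografts in this experiment, which the sample labels do not assign to mice. Values are log2(CPM), the log2 of a gene's reads after each mouse was brought to one common number of mapped reads, and every gene under 1 CPM is listed at 0, which is called the floor below.

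In the exocyst, Exoc1 to Exoc4 form one subcomplex and Exoc5 to Exoc8 the other. Vesicles are brought to it by small GTPases of several families, among them Rab, Ral and Arf, and it hands them to SNARE proteins, which carry out the fusion. In fat cells, which fill much of the mammary gland, the exocyst takes part in the insulin-driven delivery of the glucose transporter GLUT4 to the cell surface, and in epithelial cells it serves delivery to the lateral membrane and the building of primary cilia and lumens.

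The depth recovered from the spacing of the low values was 10.1 to 19.6 M mapped reads per mouse, so that 1 CPM is worth 10.1 to 19.6 reads. At least 6 of 7 adipocyte markers, 5 of 6 luminal and 4 of 5 myoepithelial markers were above the floor in every mouse. Vehicle replicates 6 and 8 held all 8 B cell markers, at up to 632.1 CPM summed, against at most 1 of the 8 in any BDE-47 mouse. The same 2 mice had 383.1 and 955.5 CPM summed over the adipocyte markers, against 7538 to 23540 in the other vehicle mice, and 47.2 and 184.9 CPM over the luminal markers, against 676.6 to 2632 CPM. BDE-47 replicate 6 held skeletal muscle RNA, with 87490 CPM summed over 6 muscle markers against a median of 67.1 in its group. It was also the lowest of its group for luminal, myoepithelial and adipocyte markers. Their sums were 133.3, 50.7 and 3801 CPM, against group medians of 1725, 304.9 and 10046 CPM. BDE-47 replicates 4 and 7 had the fewest genes above the floor, 6932 and 7135, against 7475 to 12689 in the other mice. The tissue of a library and the RNA it holds per cell cannot be told apart in such bulk samples. The part of these mice in the results was not tested beyond leaving them out, and values without them are given where the direction of a named gene turned.

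Exoc5 was lower in most BDE-47 mice and was spread widely among them. Exoc5 (RefSeq gene 105504, chr14:49011922-49066667 in GRCm38, minus strand) encodes a core subunit, the Sec10 protein, that binds Arf6. In vehicle mice it stood in a narrow band, at 5.96, 5.67, 5.89, 6.70, 6.11, 5.53, 6.08 and 6.68 log2(CPM) in replicates 1 to 8. In BDE-47 mice it was listed at 6.06, 0.37, 5.20, 0, 5.72, 3.35 and 0.04 in replicates 1 to 7. BDE-47 replicates 1 and 5 lay inside the range of the vehicle mice, replicate 3 lay just under it, and replicates 2, 4, 6 and 7 lay far under it. In CPM the vehicle mice held 46.2 to 104 CPM, whereas BDE-47 replicates 2 and 7 held 1.29 and 1.03 CPM, which correspond to 19 and 12 reads. It passed the floor in all 8 vehicle mice and in 6 of 7 treated mice, and 10 CPM in 8 and 4 mice.

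The mean of Exoc5 was 6.08 ± 0.43 log2(CPM) (SD, n = 8) with vehicle and 2.96 ± 2.78 (SD, n = 7) with BDE-47, a difference of -3.12. It was the 11th lowest difference of the 9511 genes that were above the floor in at least 7 mice. Because Exoc5 was chosen by this contrast, no test is given for it. Without BDE-47 replicates 4 and 7, the mice with the fewest genes above the floor, the difference was -1.94, and as the log2 ratio of the mean linear CPM it was -1.54. Without the vehicle mice with B cell markers and the BDE-47 mouse with muscle RNA it was -3.17.

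**Figure D1:**
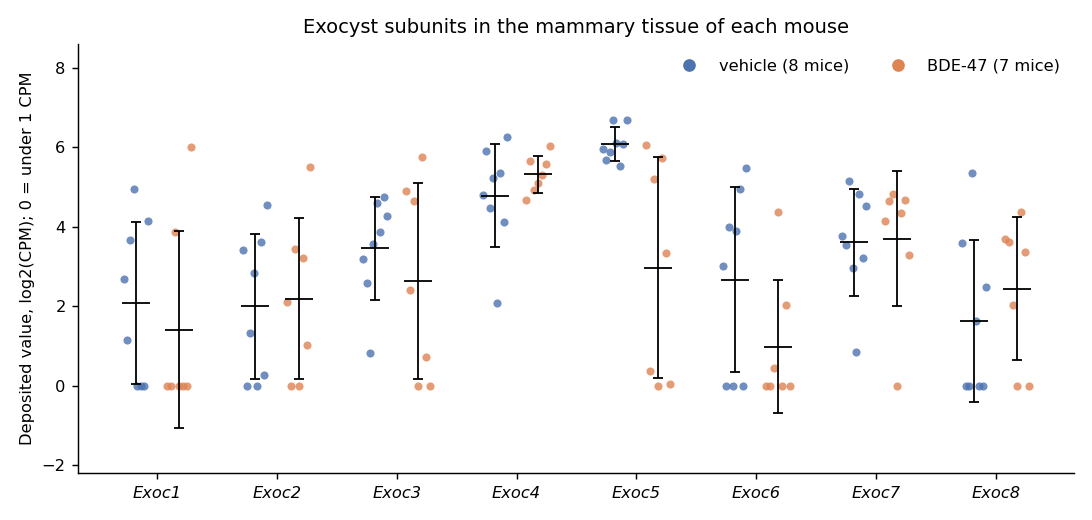
Level of each exocyst subunit in each mouse, as log2(CPM) with 0 standing for under 1 CPM. Blue points are the 8 vehicle mice, orange points the 7 BDE-47 mice, and black lines give the mean and SD of each group. The vehicle mice of Exoc5 lie between 5.53 and 6.70, whereas its BDE-47 mice reach from 0 to 6.06. In every subunit the groups overlap.

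Across all 9511 genes tested with limma, 0 genes (0%) passed at a Benjamini-Hochberg adjusted p of 0.05, the smallest being 0.982, whereas 443 genes lay under 0.05 before adjustment. None of the 7 other subunits passed, and none lay under 0.05 before adjustment. The mean of 3 of the 7 was lower with BDE-47 (Exoc1, Exoc3 and Exoc6) and that of 4 was higher (Exoc2, Exoc4, Exoc7 and Exoc8), beside 50.9% of all genes tested that had a lower mean. One subunit, Exoc6, was lower past 2-fold, where 13.2% of all genes tested were lower past 2-fold, and 0 of the 7 were higher past 2-fold, against 13% of all genes. The count past 2-fold was 0 without vehicle replicates 6 and 8, and 3 with a pseudocount of 0.1 or without BDE-47 replicate 3. The median difference of the 7 was 0.10, beside -0.02 for all genes tested. Leaving out vehicle replicate 5 or BDE-47 replicate 3 raised the count of lower means from 3 to 5, since Exoc2 and Exoc7 lay close to 0.

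**Figure D2:**
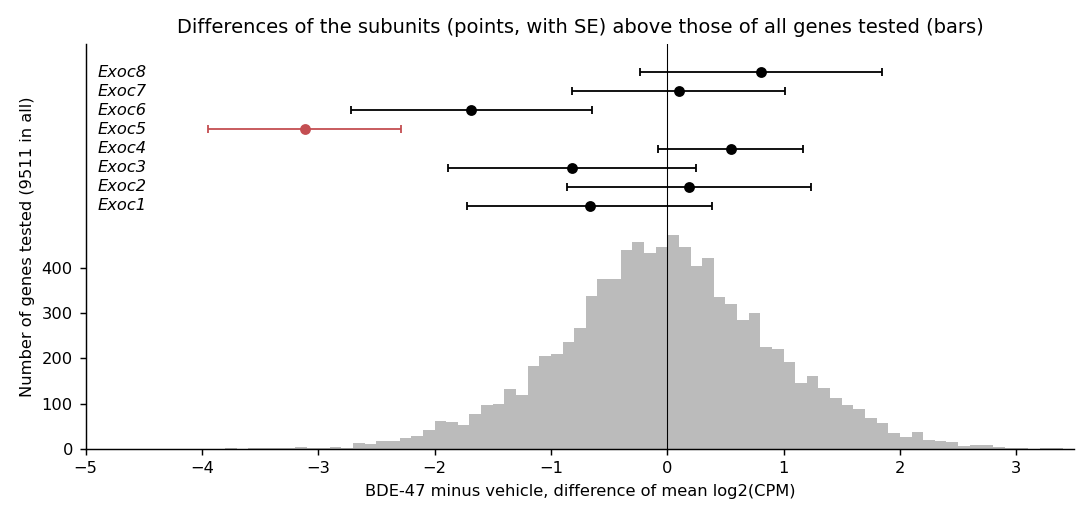
Difference of mean log2(CPM), BDE-47 minus vehicle, for the 8 subunits (points, with the standard error of the fit) above the same difference for all 9511 genes tested (bars). Exoc5 lies at -3.12, Exoc6 at -1.69, and the other 6 lie between -0.82 and 0.80. Exoc5, in red, chose the set, so its standard error is not a test of it.

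In the first subcomplex, Exoc4 was measured in every mouse. Exoc4 (chr6:33249090-33973979, plus strand), the Sec8 protein that a mouse embryo needs to develop, was the only one of the 8 above the floor in all 15 mice. It ranged from 2.09 to 6.26 log2(CPM) in vehicle mice, with a median of 5.02, and from 4.68 to 6.03 in BDE-47 mice, with a median of 5.29. The groups overlapped, and the lowest mouse, vehicle replicate 5, was a control. Its means were 4.78 ± 1.30 (SD, n = 8) and 5.32 ± 0.47 (SD, n = 7), a difference of 0.55 (standard error 0.62, limma adjusted p = 0.987). In BDE-47 replicates 2, 4 and 7, where Exoc5 was at 0.37 or less, Exoc4 was at 5.66, 5.09 and 6.03.

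Among BDE-47 mice, Exoc3 was low in the mice in which Exoc5 was low, and its difference between the groups did not pass the test. Exoc3 (chr13:74169802-74210032, minus strand) encodes the Sec6 protein, which binds SNARE proteins at the target membrane. In vehicle mice it ranged from 0.81 to 4.75 log2(CPM), with a median of 3.71, and its lowest vehicle mouse, replicate 3, had Exoc5 at 5.89. In BDE-47 mice it was listed at 4.91, 2.40, 4.65, 0, 5.76, 0.71 and 0 in replicates 1 to 7. The high values stood in replicates 1, 3 and 5, which were also the mice with the highest Exoc5, and the difference of the means was -0.82 (standard error 1.07, limma adjusted p = 0.993). Without BDE-47 replicates 4 and 7 this difference was 0.23.

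Exoc1 and Exoc2 were listed at 0 in some mice of both groups and stood well above the floor in others. Exoc1 (chr5:76529307-76570298, plus strand), the Sec3 protein that binds phosphoinositides of the plasma membrane, passed the floor in 5 of 8 vehicle mice but in 2 of 7 with BDE-47. These, replicates 3 and 7, stood at 3.86 and 6.01, and replicate 7 was the highest of all 15. The median was 1.92 with vehicle and 0 with BDE-47, and the difference of the means was -0.67 (standard error 1.05, limma adjusted p = 0.994). As the log2 ratio of the mean linear CPM the direction turned, to 0.36. Exoc2 (chr13:30789516-30974096, minus strand), the Sec5 protein and a binding partner of active RalA and RalB, passed the floor in 6 of 8 and 5 of 7 mice. It ranged from 0 to 4.55 with vehicle and from 0 to 5.51 with BDE-47, with medians of 2.07 and 2.10, and differed by 0.19 (standard error 1.05, limma adjusted p = 0.997), or -0.0402 without BDE-47 replicates 4 and 7.

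In the second subcomplex, which holds Exoc5, Exoc6 had the next lowest difference. Exoc6 (chr19:37536763-37684052, plus strand) encodes the Sec15 protein, the subunit that meets Rab11 on vesicles. It passed the floor in 5 of 8 mice with vehicle, at 3.02 to 5.48 log2(CPM), and in 3 of 7 with BDE-47, at 4.37 in replicate 4, 2.03 in replicate 6 and 0.45 in replicate 3. Its highest BDE-47 mouse, replicate 4, was the one in which Exoc5 was listed at 0, whereas Exoc6 was at 0 in replicates 2 and 7, where Exoc5 was also low, and in replicates 1 and 5, where Exoc5 was high. The means were 2.66 ± 2.32 (SD, n = 8) and 0.98 ± 1.67 (SD, n = 7), a difference of -1.69 (standard error 1.04, limma adjusted p = 0.982). The highest vehicle values were those of replicates 8 and 6, the mice with B cell markers, at 5.48 and 4.95, and without both mice the difference was -0.84.

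Exoc7 and Exoc8 had higher means with BDE-47, neither past the test. Exoc7 (chr11:116287997-116306750, minus strand), the Exo70 protein that holds the complex on the plasma membrane and binds the GTPase TC10, ranged from 0.85 to 5.14 log2(CPM) in vehicle mice, with a median of 3.66. In BDE-47 mice its median was 4.33 and 6 of 7 mice stood between 3.30 and 4.82, with replicate 4 listed at 0. Its difference of 0.10 (standard error 0.92, limma adjusted p = 0.999) became -0.00328 when a pseudocount of 1 was added to the CPM values. Values at the floor were taken as 0 CPM there. Exoc8 (chr8:124890299-124897705, minus strand), the Exo84 protein and another partner of active Ral, passed the floor in 4 of 8 mice with vehicle and 5 of 7 with BDE-47. It reached from 0 to 5.35 and from 0 to 4.36, with medians of 0.81 and 3.36, and its difference was 0.80 (standard error 1.04, limma adjusted p = 0.993).

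**Figure D3:**
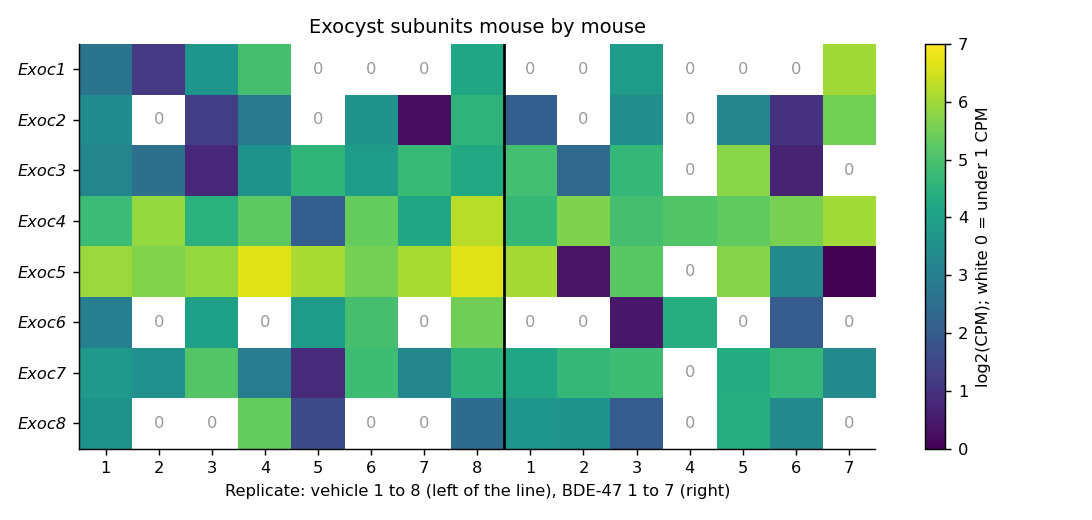
Map of the 8 subunits (rows) in the 15 mice (columns, vehicle left of the line and BDE-47 right of it). Colour gives log2(CPM) and a white cell marked 0 was under 1 CPM. Exoc5 is above the floor throughout the vehicle mice, Exoc4 throughout all mice, and BDE-47 replicate 4 has 2 of the 8 subunits above the floor, Exoc4 and Exoc6.

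Of the 120 subunit values, 29 were listed at 0. In vehicle mice 18.8% of the values of the 8 subunits were at 0, beside 21.9% of the values of all genes tested, and in BDE-47 mice 30.4%, beside 19.3%. Without Exoc5, which chose the set, the shares of the subunits were 21.4% with vehicle and 32.7% with BDE-47. Vehicle mice had between 5 and 8 subunits above the floor and BDE-47 mice between 2 and 8. The lowest was BDE-47 replicate 4, which also had the fewest genes above the floor. The summed level of the 8 subunits had a median of 149.6 CPM with vehicle (range 116.9 to 313.4) and 151.3 CPM with BDE-47 (range 54.8 to 196), and the groups overlapped. Without Exoc5 the summed level of the other 7 had medians of 88.9 and 93.1 CPM. Exoc5 made up 26.7% to 58.9% of the summed subunit CPM in vehicle mice and 0% to 42.5% in BDE-47 mice, whereas Exoc4 made up 3.63% to 45.6% and 16.3% to 62.1%.

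The order of the subunit levels is given as a description, since Exoc5, which chose the set, moves within it. In vehicle mice Exoc5 stood first by mean log2(CPM), followed by Exoc4 at 4.78, Exoc7 at 3.60, Exoc3 at 3.45, Exoc6 at 2.66, Exoc1 at 2.08, Exoc2 at 2.00 and Exoc8 at 1.63. Exoc5 was above Exoc4 in 7 of 8 vehicle mice by 1.30 ± 1.32 (SD), and of the 7 steps between neighbours the step from Exoc4 to Exoc7, 1.17 ± 0.99 (SD), was the only one larger than its spread between mice. In BDE-47 mice Exoc4 stood first, above Exoc7 in 7 of 7 mice, and Exoc5 stood after Exoc7, and no step between neighbours was larger than its spread.

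Within groups the subunits varied together only in part. After the mean of its group was taken from each value, the 28 pairs of subunits had Pearson's r from -0.29 to 0.77 over the 15 mice, with a median of 0.15, and 18 of them were above 0. The 2 highest were Exoc3 with Exoc5, at 0.77 (Spearman's rank correlation 0.74), and Exoc1 with Exoc2, at 0.68 (Spearman 0.50). Exoc5 had r of 0.51 with Exoc8, 0.39 with Exoc7, -0.19 with Exoc4 and -0.23 with Exoc6. These correlations describe 15 mice that share library depth and dropout at the floor, and because Exoc5 falls into separate clusters of BDE-47 mice no p is given. Within groups the SD of Exoc5 was 0.43 with vehicle and 2.78 with BDE-47. Its correlations therefore rest mostly on the BDE-47 mice, whose Exoc5 values were part of the contrast that chose the set. Without BDE-47 replicates 1 and 4, the mice farthest from the median, Exoc3 and Exoc5 had r of 0.67 and Exoc7 and Exoc5 0.12. BDE-47 replicates 3 and 5, high for Exoc5, and replicates 2 and 7, low for it, stayed in.

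**Figure D4:**
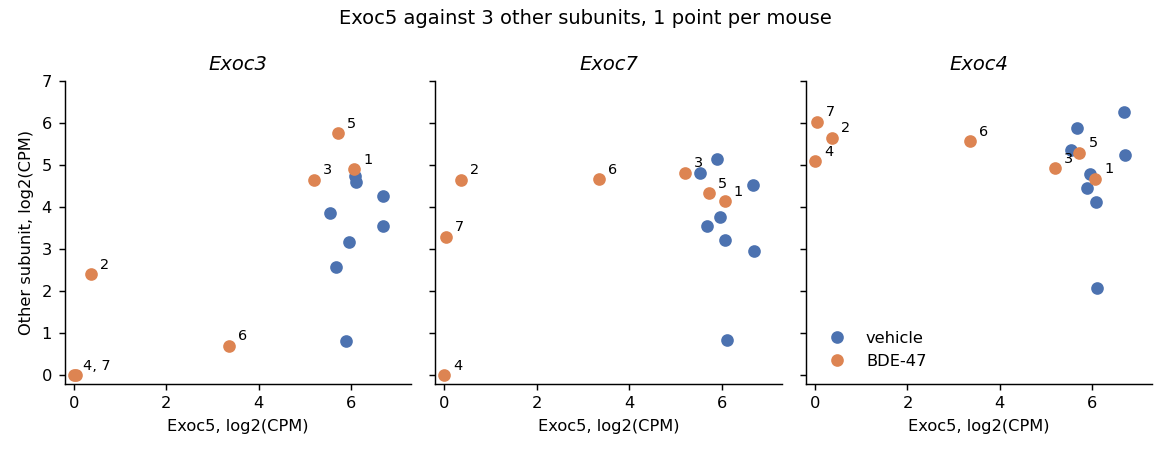
Exoc5 (x axis, log2(CPM)) against Exoc3, Exoc7 and Exoc4 (y axes, log2(CPM)), 1 point per mouse, with BDE-47 mice numbered by replicate. Exoc3 is high in BDE-47 replicates 1, 3 and 5, where Exoc5 is at 5.20 to 6.06, and at 0 in replicates 4 and 7. Exoc4 lies between 4.68 and 6.03 in every BDE-47 mouse.

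The genes most like Exoc5 by the same measure, among 9510 compared, were Pyroxd1 (r = 0.89, Spearman 0.93), Lipa (0.88, Spearman 0.84), Hgs (0.84, Spearman 0.72), Nr1h2 (0.82, Spearman 0.65) and Bad (0.82, Spearman 0.69). Exoc3 ranked 16th of the 9510. These ranks, too, rest mostly on the spread of Exoc5 among the BDE-47 mice. Lipa, the lysosomal acid lipase, stood at 4.67 ± 0.77 log2(CPM) (SD, n = 8) with vehicle and 2.20 ± 1.91 (SD, n = 7) with BDE-47. Hgs encodes an endosomal sorting protein, Nr1h2 the liver X receptor beta and Bad a protein of the BCL2 family, and their differences were -0.71, -0.54 and -1.13. Without BDE-47 replicates 4 and 7 these became 0.25, 0.68 and -0.0431. Pyroxd1, an oxidoreductase, had a higher mean with BDE-47, by 1.09, and passed the floor in 8 of 15 mice.

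The promoters of Exoc5, of Exoc3, which was low in the same BDE-47 mice, and of Exoc4, which was above the floor in every mouse, are shown from RefSeq (GRCm38.p6), 250 bases before to 50 bases after the first listed start, on the strand of the gene. Capitals mark matches on either strand to any of 6 motifs: the GC box GGGCGG, the CCAAT box CCAAT, the ETS core CCGGAAG, the core TGACNNNGC of the element bound by NFE2L2, the core GAAANNGAA of the interferon-stimulated response element, and the NRF1 core GCGCNTGCG.
Exoc5, chr14:49066618-49066917, minus strand: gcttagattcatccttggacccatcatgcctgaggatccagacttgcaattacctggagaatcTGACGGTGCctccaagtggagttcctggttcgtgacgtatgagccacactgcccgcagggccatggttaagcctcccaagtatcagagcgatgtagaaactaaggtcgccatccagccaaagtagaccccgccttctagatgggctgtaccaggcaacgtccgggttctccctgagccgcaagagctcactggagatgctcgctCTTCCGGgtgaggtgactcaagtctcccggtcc
Exoc3, chr13:74208651-74208950, minus strand: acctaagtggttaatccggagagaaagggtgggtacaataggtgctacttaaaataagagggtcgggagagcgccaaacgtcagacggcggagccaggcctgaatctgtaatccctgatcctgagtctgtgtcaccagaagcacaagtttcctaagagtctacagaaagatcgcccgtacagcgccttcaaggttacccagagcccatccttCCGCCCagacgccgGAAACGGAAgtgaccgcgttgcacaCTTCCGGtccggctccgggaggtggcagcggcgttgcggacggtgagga
Exoc4, chr6:33248878-33249177, plus strand: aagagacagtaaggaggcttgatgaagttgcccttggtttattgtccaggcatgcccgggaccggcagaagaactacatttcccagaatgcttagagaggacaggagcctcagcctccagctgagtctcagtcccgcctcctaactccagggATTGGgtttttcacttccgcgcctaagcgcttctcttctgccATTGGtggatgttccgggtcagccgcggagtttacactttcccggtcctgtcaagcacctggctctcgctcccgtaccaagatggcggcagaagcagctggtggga

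The windows of Exoc5 and Exoc3 both held the ETS core, just after the listed start, whereas 9.12% of the 27025 RefSeq promoters of the same length held it. The window of Exoc1, which had r of -0.09 with Exoc5 within groups, held it as well. The listed start of Exoc3 lies inside its gene span, which reaches 74210032, whereas the window ends at 74208950. That of Exoc6 also lies inside its gene span, which begins at 37536763, whereas the window begins at 37550168. Exoc5 also held the NFE2L2 core, as did Exoc2 (12.5% of all promoters), and Exoc3 held a GC box and the interferon response core. Exoc4 held CCAAT boxes, as did Exoc1 (37.9% of all promoters). The GC box stood in 5 of the 8 windows (35.9% of all promoters), the interferon response core in 2 (8.57%) and the NRF1 core in 2, those of Exoc6 and Exoc8 (6.59%). A match describes letters in a window and no binding was measured. The first 260 bases of Exoc5 overlap Ap5m1, a gene of the AP-5 adaptor read from the opposite strand, which was above the floor in 2 vehicle mice and 1 BDE-47 mouse, so the bases before the start of Exoc5 lie inside that gene. The overlap is at the 5′ ends, whereas the libraries read the 3′ ends.

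Of the paralogs of the subunits, Exoc3l was above it in 2 mice of each group and Exoc3l2 in 1 of each, and neither was tested. Exoc3l4 passed the floor in 11 of 15 mice, with medians of 2.60 and 3.15 log2(CPM) in the vehicle and treated mice, and differed by 0.45 (standard error 1.11, limma adjusted p = 0.994). Exoc6b, the close relative of Exoc6, passed the floor in 2 of 8 mice with vehicle and 5 of 7 with BDE-47, at 0.86 ± 1.65 (SD, n = 8) and 2.05 ± 1.96 (SD, n = 7) log2(CPM), a difference of 1.19 (standard error 0.89, limma adjusted p = 0.982).

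Of the GTPases and the kinase that work with the exocyst, 13 of 13 listed genes were tested, 0 passed, 9 had a lower mean and 4 a higher one, with a median difference of -0.21. Ralb stood apart. Ralb, the Ral GTPase that recruits Exoc2 and the kinase TBK1 in innate immune signalling, was at 5.34, 4.20, 3.83, 5.70, 4.47, 4.19, 6.04 and 3.68 log2(CPM) in vehicle replicates 1 to 8. In BDE-47 replicates 1 to 7 it was listed at 3.75, 0, 4.11, 0.12, 0.55, 2.15 and 0. Only BDE-47 replicates 1 and 3 lay inside the vehicle range, and replicate 5, with Exoc5 at 5.72, was low for Ralb. Ralb differed by -3.16 (standard error 0.97, limma adjusted p = 0.982), the 10th lowest of the genes tested, and it was -2.57 without BDE-47 replicates 4 and 7.

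Rala, the paralog of Ralb that drives exocytosis through the same subunits, was even between the groups by comparison, at 6.02 ± 0.90 (SD, n = 8) and 5.69 ± 0.70 (SD, n = 7) log2(CPM), a difference of -0.33 (limma adjusted p = 0.994). It was above the floor in all mice, also in those where Ralb was listed at 0. Whether the differences of Rala and Ralb differ from each other was not tested. Rab11a, which carries vesicles of the recycling endosome to Exoc6, differed by -0.21, Rab10 by 0.58, Rab8a by -0.78 and Rab8b by -1.20. Arf6, the GTPase that meets Exoc5, differed by -0.17 and Rhoq, the gene of TC10, by 0.12, each above the floor in all 7 BDE-47 mice. Without vehicle replicates 6 and 8 these were 0.42 and -0.0655. Tbk1 passed the floor in 4 of 8 and 5 of 7 mice and differed by 0.53, which became -0.32 without BDE-47 replicates 4 and 7.

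Regulators of Ral were split, with 4 of 7 tested lower, 3 higher and 0 past the test (median -0.01). The exchange factors Ralgps2 and Rgl1 differed by -1.14 and -1.10, and Ralgds by 0.48. Without the vehicle mice that held B cell markers Ralgps2 differed by -0.20, and by 0.0852 when BDE-47 replicate 6 was left out as well. Ralgapb, the shared subunit of the Ral GTPase-activating complexes, which turn Ral off, had the highest difference of the list, with means of 3.10 ± 2.36 (SD, n = 8) and 4.68 ± 1.00 (SD, n = 7) and a difference of 1.58 (standard error 0.93, limma adjusted p = 0.982).

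Among 14 genes of the SNARE machinery at the plasma membrane, 9 had a lower mean and 5 a higher one, 0 passed, and the median was -0.23. Of the SNAREs that fuse GLUT4 vesicles, Vamp2 at 0.06 (-0.00233 without vehicle replicates 6 and 8) and Snap23 at 0.03 were near level between groups. Stx4a differed by -0.58, beside a median size of the difference of 0.58 for all genes tested. Nsf, the ATPase that takes SNARE complexes apart after fusion, was at 3.80 to 6.49 log2(CPM) in the 8 vehicle mice and at 0, 2.46, 3.89, 4.93, 0, 4.18 and 5.31 in BDE-47 replicates 1 to 7, a difference of -2.08 (standard error 0.86, limma adjusted p = 0.982). The BDE-47 mice in which Nsf was listed at 0, replicates 1 and 5, were the 2 with the highest Exoc5 of that group. Stx3 and Stxbp2, a syntaxin of the apical membrane and its partner, differed by 2.12 and 1.47, and Stx3 passed the floor in 5 of 8 and 7 of 7 mice.

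Of the genes of GLUT4 traffic 10 of 14 tested had a higher mean, 4 a lower one and 0 passed (median 0.24). Irs1, an adaptor of the insulin receptor, was at 0.04 and 0 in vehicle replicates 6 and 8 and at 4.23 to 6.37 in the other vehicle mice, against 4.68 to 7.33 in the BDE-47 mice. Its difference was 2.36 (standard error 0.80, limma adjusted p = 0.982) and was 1.13 without those vehicle mice, which held B cell markers and little adipocyte and luminal RNA. Slc2a4, which encodes GLUT4, differed by 1.16 with all mice and by 0.15 without the same 2, and by -0.13 when BDE-47 replicate 6 was left out as well. Trip10, which binds TC10, differed by 2.36 (standard error 1.05, limma adjusted p = 0.982) and by 2.37 without them. Cbl and Tbc1d4, the lowest of the list, differed by -0.70 and -0.49. Without vehicle replicates 6 and 8 Tbc1d4 differed by 0.00479, without BDE-47 replicates 4 and 7 by 0.27, and Cbl by 0.12 when BDE-47 replicate 6 was left out with the vehicle pair.

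Other complexes that tether vesicles served as a comparison of like function. Of their 22 genes tested, 11 had a lower mean with BDE-47 and 11 a higher one, 0 passed, and the median difference was 0.04. In the COG complex of the Golgi 4 of 8 were lower, from -1.12 (Cog5) and -0.69 (Cog4) up to 0.96 (Cog1) and 1.28 (Cog8). Without BDE-47 replicates 4 and 7 Cog4 differed by 0.40. In GARP and EARP, which act on endosome-to-Golgi and recycling traffic, 2 of 4 were lower, with Vps52 at -0.40, Vps50 at -0.38, Vps54 at 0.38 and Vps53 at 0.90. Vps50 became 0.0619 without vehicle replicates 6 and 8 and 0.0847 without BDE-47 replicates 4 and 7. In HOPS and CORVET, which act on lysosomes and endosomes, 3 of 7 were lower, from -1.51 (Vps16) and -0.43 (Vps18) to 1.09 (Vps11) and 1.26 (Tgfbrap1). Without vehicle replicates 6 and 8 Vps18 differed by 0.38. In the NRZ complex of the endoplasmic reticulum Zw10 differed by -1.06, Nbas by -0.03 (0.04 under median-of-ratios scaling and 0.31 without BDE-47 replicates 4 and 7) and Rint1 by 0.11. None of these genes had a difference as large in size as those of Exoc5 and Ralb, but Exoc5 was chosen for its size.

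**Figure D5:**
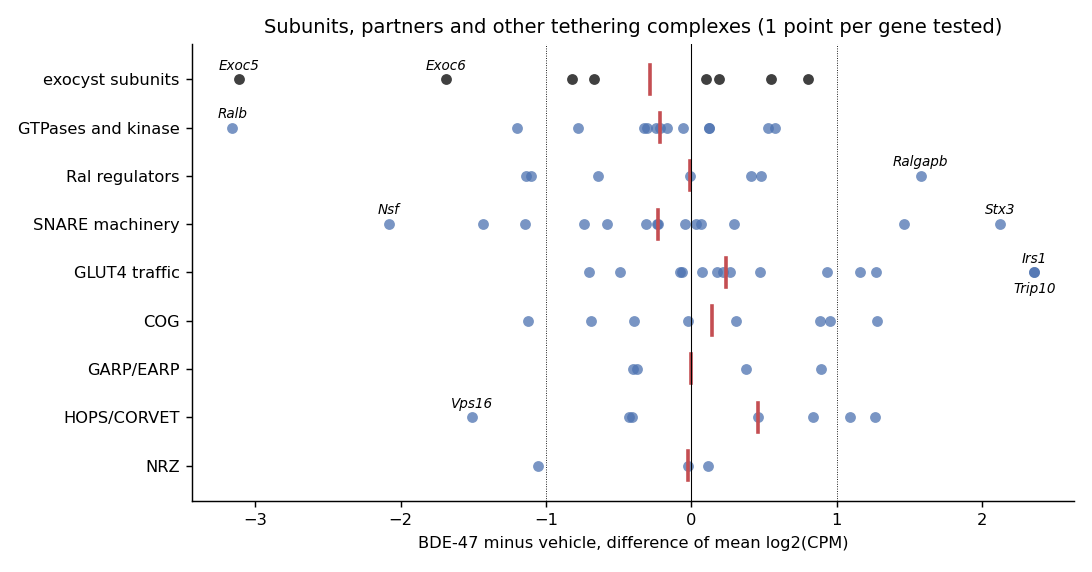
Difference of mean log2(CPM), BDE-47 minus vehicle, for each tested gene of the exocyst, its partners and other tethering complexes, 1 point per gene, with a red line at the median of each row and dotted lines at 2-fold. Exoc5 at -3.12 and Ralb at -3.16 lie farthest to the left, and Irs1 and Trip10 at 2.36 farthest to the right. No gene shown passed the limma test.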

How the data were processed

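RNA of mammary tissue from 15 mice was read with QuantSeq 3′ FWD. Per the submitters' processing notes the authors used STAR 2.5.3a and GRCm38, and they deposited log2(CPM), in which genes under 1 CPM stand at 0 (read from the values). These deposited log2 values were used unchanged. Of 52636 entries per mouse, 110 that share a name with another of higher mean were dropped. The spacing of the low values gave whole reads (within 0.1) for 100% of values and so the depth of each mouse, but reads under 1 CPM are missing, so count models were not used.

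Groups came from the treatment labels. Genes at or above 1 CPM in at least 7 mice (9511) were tested with limma 3.58.1 (trend) in R 4.3.3, all 15 mice and group as the only term, with Benjamini-Hochberg adjustment over all of them. The step was tested on simulated data. Labels name replicates but not separate cages or litters, and p-values measure the spread between these mice. Tables and plots were made with Python 3.11.15, pandas 2.3.3 and matplotlib 3.10.9.

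The members and gene lists were chosen with earlier results of these data known. Named genes are the subunits and paralogs, the 2 largest rises and falls of each list, 12 partners, and the 5 genes most like Exoc5. A gene that this rule names is not reported here. Wfdc18 and Chchd2 were named after their values were seen. Promoters and positions are RefSeq (GRCm38.p6), matched by symbol for 8 of 8 subunits. Exoc1l was not analysed here.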

Additional observations from a re-analysis of the deposited data

Results flagged for a closer look

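A value was marked when a mouse stood far from the others of its group for its gene, by Dixon's ratio. Over 114 groups of values of 57 genes, 10 were marked. Chance marks about 5 in 100 where values are normally spread, which does not hold for values listed at 0. For Exoc3l2 the ratio was 1 because all other mice of the group were at 0. Among the subunits it was Exoc7 in BDE-47 replicate 4, at 0 against 3.30 for the nearest mouse. Of the paralogs, Exoc3l stood at 3.04 in vehicle replicate 5 (next 1.20) and 2.80 in BDE-47 replicate 1 (next 0.66), and Exoc3l2 at 4.22 in vehicle replicate 4 and 2.49 in BDE-47 replicate 3, with all other mice at 0. Of the partners, Rab10 was at 1.20 in vehicle replicate 2 (next 5.38), Ralgds at 3.74 in BDE-47 replicate 6, the mouse with muscle RNA (next 6.08), and Cbl at 7.17 in vehicle replicate 6, a mouse with B cell markers (next 5.38). Of the other tethers, Vps53 was at 0 in vehicle replicate 7 (next 3.11) and Rint1 at 4.87 in vehicle replicate 3 (next 1.78). All values are log2(CPM), and what set them apart was not tested.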

How the results depend on the processing

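The difference of Exoc5 kept its direction under all 9 alternatives with a fixed setting (-3.55 to -1.54) and without any 1 mouse (-3.63 to -2.62). The count of the other 7 subunits with a lower mean, 3 in the report, was 1 as the log2 ratio of mean linear CPM, where Exoc1 (0.36) and Exoc3 (0.23) turned higher, and 3 to 5 without any 1 mouse. The count past 2-fold, 1 in the report, was 0 to 3 over all alternatives. Without any 1 mouse Exoc2 ranged from -0.37 to 0.55 and Exoc7 from -0.29 to 0.72. Exoc7 turned with a pseudocount of 1 (-0.00328) or 0.1 (-0.39). Without the 2 mice with the fewest genes above the floor, an alternative chosen after seeing the data, Exoc2 (-0.0402) and Exoc3 (0.23) turned. Exoc4, Exoc6 and Exoc8 kept their direction under every alternative run. No gene was called under the other alternatives run, and 2 were called without the mice with B cell markers and the mouse with muscle RNA together, also added later: Wfdc18 (1.78 higher, limma adjusted p = 0.0312) and Chchd2 (-1.48, adjusted p = 0.0494). Neither is a gene of the exocyst or its partners. Under median-of-ratios scaling, which moved the median of all genes tested from -0.02 to 0.06, 31 in place of 37 of 70 partner and tether genes had a lower mean.

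With the replicate number as a block (7 pairs), 0 genes were called, 3 of the 7 other subunits were lower and Exoc5 differed by -3.03. The differences equal those without the block in the same mice by construction, since a block of complete pairs can change only the p-values. Same-numbered mice had small correlations, of -0.02 to 0.05 over the genes tested. The vehicle mouse most correlated with BDE-47 replicates 1, 2, 3 and 6 had the same number. For BDE-47 replicates 4, 5 and 7 it had another number. Whether the numbers pair mice cannot be told from these values. The floor of the deposited values limits the low subunits: Exoc1, Exoc2, Exoc6 and Exoc8 were under 1 CPM in 4 to 8 of 15 mice, where a lower level could not be seen.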
